A study of Rattus norvegicus with 12 samples.

Results

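Osteoblast cultures grown from the bone marrow of spinal cord-injured rats that had received electrical muscle stimulation (SCI+FES) were compared with osteoblast cultures from sham-operated rats, and the genes that still differed from sham after stimulation are described here over all detected genes. The comparison used 4 of the 12 arrays of the series, chosen by their titles: 2 arrays of the SCI+FES osteoblast pool and 2 of the sham osteoblast pool. The remaining 8 arrays held an osteoblast pool of injured rats without stimulation (SCI) and osteoclast cultures of all 3 treatments, and they are used only for values set beside those of the 4.

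All animals were male Wistar-Hannover rats. In the SCI+FES group the spinal cord was transected, microstimulators were implanted 14 weeks later, and functional electrical stimulation of the paralysed muscle began in week 16 and ran for 7 days in a row. Each daily session lasted 60 minutes, in contractions of 2 s at 40 Hz and 1.5 V followed by 18 s of rest. Sham rats had the same operation with the cord left intact, and their tissue was taken 12 to 14 weeks after it. For sham animals the study's text records no implant. The injury, the implant, the stimulation and the time after surgery therefore differ together between the pools and cannot be told apart in this comparison.

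Marrow was taken from tibia and femur, and the labels give culture day 10 for both osteoblast pools. Each group was 1 RNA pool from 3 to 4 animals, arrayed in duplicate, so the duplicates are technical, the comparison has n = 1 pool on each side, and it has no test and no p-value. In the sample descriptions the number given to the SCI+FES osteoblast pool also stands on the SCI+FES and the SCI osteoclast pools, and the sham osteoblast and osteoclast pools share a number. The labels do not say whether pools with the same number share animals. In bulk RNA of this kind, fewer cells of a type and less RNA per cell cannot be told apart.

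Osteoblasts arise from stromal cells of the marrow, lay down a collagen-rich matrix and mineralise it, and they lose this programme in part when the skeleton is unloaded. They also steer osteoclasts, the bone-resorbing cells of the macrophage lineage, by secreting RANKL, which drives osteoclast formation, and osteoprotegerin, a decoy receptor that binds RANKL. Inflammatory cytokines such as interleukin-1 shift this balance towards resorption and can restrain osteoblast maturation. Marrow cultures begin with a mixture of adherent cells, so that macrophages and lymphocytes may persist beside the stromal cells.

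Levels are normalized log2 intensities, and differences are SCI+FES minus sham on that scale. The error after ± is a standard error from the duplicates and covers the arrays, not animals or cultures. An offset of 50 was added before taking logs, which understates the differences of dim genes. Genes were called higher or lower by their size alone: the pool means had to differ 2-fold or more, the arrays of the pools could not overlap, and 1 pool at least had to be detected on its 2 arrays, with a detection p no greater than 0.01. These 3 conditions are called the size rule. Genes detected in 1 pool and not the other count as detected, so the number detected and the median of a list depend in part on this filter. Detected probes made up 36.9% and 38.3% of the SCI+FES arrays, and 38.0% and 37.8% of the sham arrays. Before normalization the 75th percentile of the intensity was 130 and 156 on the SCI+FES arrays, against 191 and 204 on the sham arrays. Duplicates correlated at r = 0.9966 in the SCI+FES pool and 0.9973 in the sham pool across genes, which are not independent replicates, and 0 genes differed 2-fold between duplicates of either pool.

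Genes past the size rule as higher in the SCI+FES pool included many inflammatory, T cell and proliferation genes, and those past it as lower included 7 of 16 detected genes of the mineralising osteoblast and 7 of 27 collagen genes. Of 8417 detected genes, 360 were higher, 4.28% of those detected, and 276 were lower, which is 3.28%. In 52 of the higher and 27 of the lower genes, no array of the dimmer pool detected the gene. Their calls rest on a dimmer level that was not detected. The fold given as "at least" is below 2 for some of them, such as Ifitm5 (1.65) and Zap70 (1.83). Higher genes made up 56.6% of those called. With each array shifted to a common median over all probes in place of quantile normalization, 286 were higher and 410 lower, higher genes made up 41.1% of the calls, and the median of all detected genes lay at -0.15 in place of -0.02. Differences of at least 4-fold were found for 55 higher and 26 lower genes. Of 166 called genes that belong to the gene lists or have the largest differences, 144 kept their call under every other setting with a 2-fold threshold. Calls lost under 1 or more settings include those of Col1a1, Lox, Pcolce, Lamb1, Tnfrsf11b, Ctsk, Fabp4, Ccn5, Dlx5, Des, Inhba, Tcf7, Fos, Cxcl1, Cxcl13, Oasl, Cd8b, Vsig4, Nusap1, Pcna and Hsp90aa1.

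**Figure D1:**
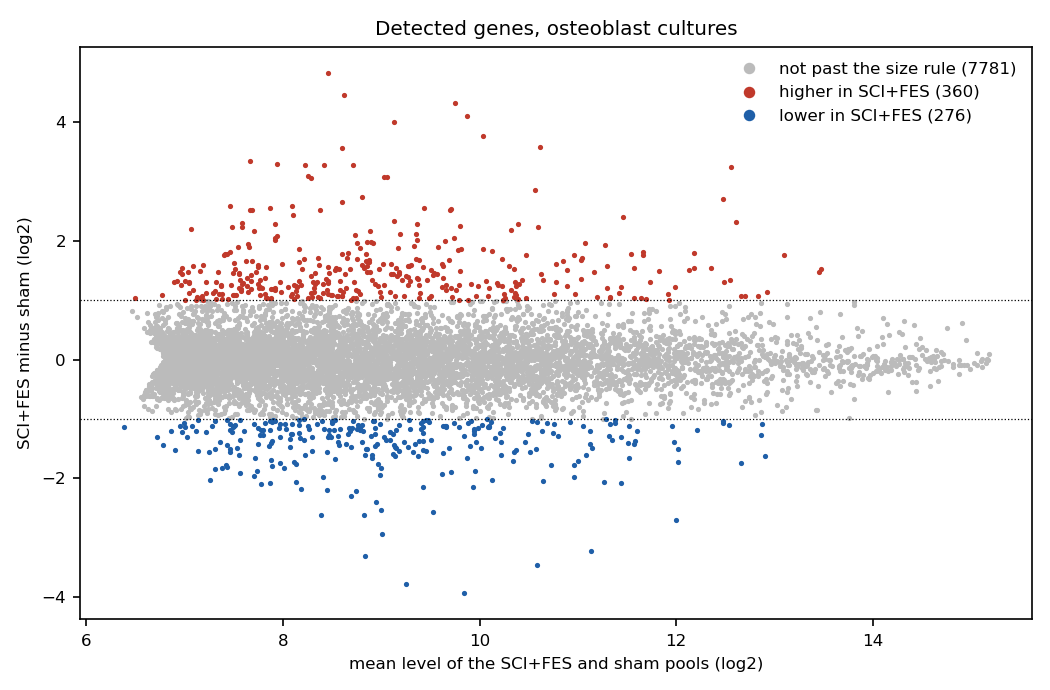
Each point is 1 of the 8417 detected genes, with the mean log2 level of both osteoblast pools on the horizontal axis and the SCI+FES minus sham difference (log2) on the vertical axis. Red points are the 360 genes higher in SCI+FES, blue points the 276 lower, and dotted lines mark 2-fold; the largest fitted difference upward is 4.83, for a gene not detected in sham.

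The label of the cultures was checked against 7 osteoblast markers. Of these, Col1a1, Spp1, Alpl and Ibsp were detected on both arrays of each pool, while Runx2 and Sp7, which encode the transcription factors that set osteoblast fate, were not detected on any of the 4 arrays. Bglap was detected on 1 array of the SCI+FES pool and on both sham arrays. Macrophage markers were abundant in both pools. The 5 measured ones (Cd68, Cd14, C1qa, C1qb and Cd163) summed to a normalized intensity of 76526.5 and 74977.5 on the SCI+FES arrays, against 56684.5 and 56235.4 on the sham arrays. Of these, Cd14, C1qb and Cd163 differed by 1.48, 0.57 and 2.09, while Cd68 and C1qa were at -0.15 and -0.03. The macrophage sums therefore cannot be read as macrophage content. The osteoblast markers summed to 21883 and 23362.6 in SCI+FES, against 26494.3 and 28026.7 in sham. Spp1, which macrophages make as well, was the brightest of these 7 in both pools and weighs most in their sums. The measured defining markers of B cells, neutrophils, erythroid cells and endothelium were not detected in either pool. The part of these shifts in the differences described next was not tested.

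Genes of the mineralising osteoblast and osteocyte were lower or level in the SCI+FES pool. Among 16 detected members of the list, 0 were higher and 7 lower, with a median difference of -0.94, against -0.02 over all detected genes. Ifitm5, Panx3 and Omd counted as detected through the sham pool and not the SCI+FES pool. Left out by the filter were Runx2, Sp7, Dmp1, Phex, Sost, Phospho1 and Msx2, at -0.08, -0.01, -0.11, -0.12, -0.01, -0.07 and -0.10. The median therefore depends in part on the detection filter. Alpl, the alkaline phosphatase that frees phosphate for mineral growth, was at 8.77 and 8.59 in the SCI+FES pool, against 10.13 and 10.30 in the sham pool. Both SCI+FES arrays lay below both sham arrays, and the difference was -1.54 ± 0.12, which is 2.9-fold lower. Smpd3, the neutral sphingomyelinase needed for normal mineralisation, stood at 7.22 and 6.97 in the SCI+FES pool, against 8.89 and 8.79 in the sham pool. It showed the largest drop of the list (-1.74 ± 0.13).

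Pth1r encodes the receptor through which parathyroid hormone acts on osteoblasts. Its level was 8.32 and 8.42 in the SCI+FES pool, against 9.70 and 9.65 in the sham pool, again without overlap (-1.31 ± 0.06). Dlx5, which encodes a transcription factor that promotes osteoblast differentiation, was lower as well (-1.14 ± 0.20). It was detected on 1 of the 2 SCI+FES arrays. Ifitm5, a membrane protein largely restricted to mineralising osteoblasts, and Panx3, a channel of osteoblasts and chondrocytes, were not detected in the SCI+FES pool and were detected on both sham arrays. Ifitm5 was at least 1.65-fold and Panx3 at least 1.63-fold lower by that bound, with fitted differences of -1.06 ± 0.03 and -1.12 ± 0.07.

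Osteocalcin and the matrix phosphoproteins did not follow Alpl past the size rule. Bglap, which encodes osteocalcin, a late osteoblast product, was at 6.86 and 6.47 in the SCI+FES pool, against 7.81 and 7.40 in the sham pool. Its arrays did not overlap between pools, but the difference of -0.94 ± 0.28 stayed short of 2-fold. For Ibsp, bone sialoprotein, the values were 7.84 and 8.28 in the SCI+FES pool, against 7.86 and 7.98 in the sham pool, so that the pools overlapped (0.14 ± 0.23). Spp1, osteopontin, a phosphoprotein that macrophages make as well, was among the brightest genes on every array, at 14.16 and 14.25 in the SCI+FES pool, against 14.14 and 14.24 in the sham pool, and its difference was 0.02 ± 0.07. Dmp1 and Sost, made by osteocytes, were not detected in either pool, with values near background on all 4 arrays.

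**Figure D2:**
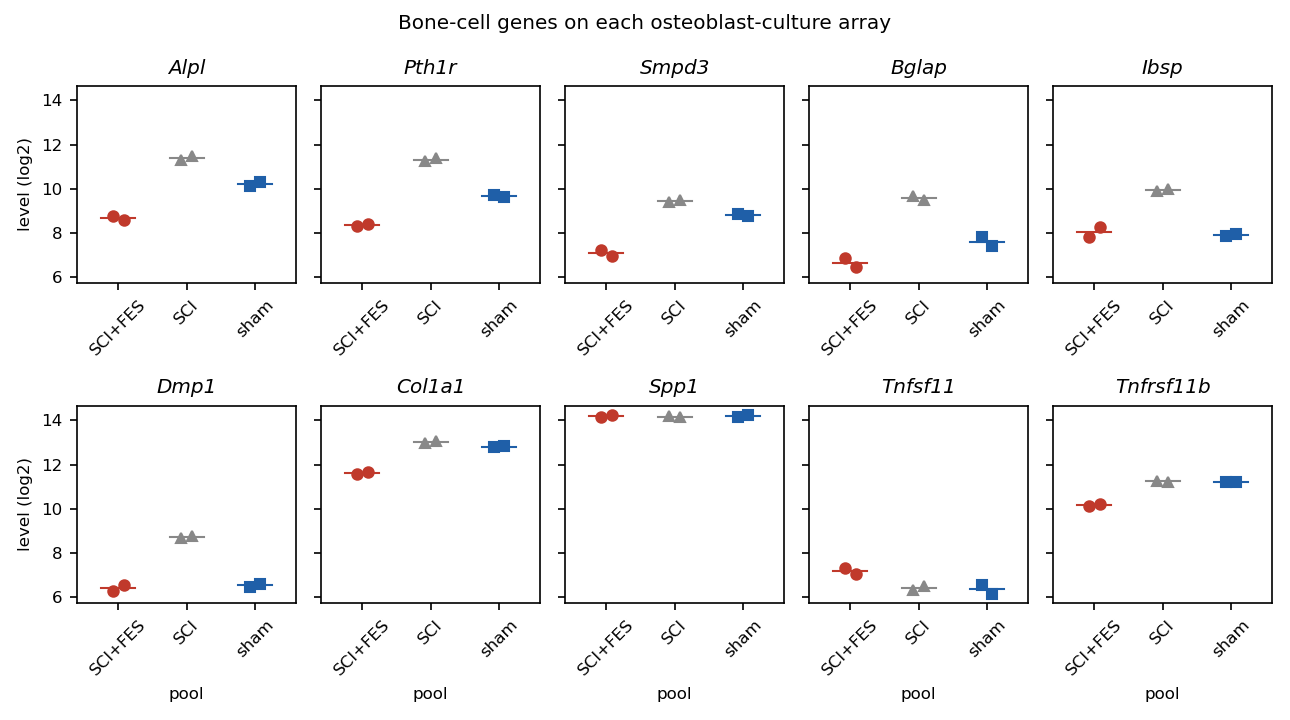
Log2 level (vertical axis) of 10 bone-cell genes on each array of the SCI+FES, SCI and sham osteoblast pools (horizontal axis); markers are the 2 arrays of a pool and lines their mean. Alpl, Pth1r and Smpd3 lie lower in SCI+FES than in sham on both arrays, Spp1 is level in all 3 pools, and Dmp1 has its highest values in the SCI pool.

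Several of these genes lay above sham in the injured pool without stimulation. That pool was compared with the same sham arrays, so both differences share them and are set side by side only. Alpl was 1.18 in SCI minus sham, Pth1r 1.65, Panx3 4.34, Ifitm5 3.21, Bglap 1.98 and Ibsp 2.03, of which Ibsp was not below sham in SCI+FES either. Over the 16 detected members of the list, the median of SCI minus sham was 0.94.

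Collagens and the enzymes that process them were lower in part. Of 27 detected, 0 were higher and 7 lower (median -0.49). Col1a1, the main chain of bone collagen, was at 11.56 and 11.68 in the SCI+FES pool, against 12.79 and 12.82 in the sham pool, with both SCI+FES arrays below both sham arrays (-1.19 ± 0.06). In the authors' matrix values the Col1a1 difference was -0.88 and no longer reached 2-fold. The chains of the beaded-filament collagen VI, Col6a1 (-1.72 ± 0.01) and Col6a3 (-1.61 ± 0.04), and Col14a1 (-1.55 ± 0.08), a fibril-associated collagen, were lower. So were the crosslinking enzymes Lox (-1.26 ± 0.12, and -0.94 in the authors' matrix values) and Loxl2 (-1.26 ± 0.05) and Pcolce (-1.03 ± 0.09), the enhancer of procollagen cleavage. Col11a1, the 1 detected gene among 10 measured on the cartilage list, was lower, at 10.52 and 10.28 in the SCI+FES pool, against 12.42 and 12.52 in the sham pool (-2.08 ± 0.13); its other probe was not detected in either pool.

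Small leucine-rich proteoglycans coat collagen fibrils and tune their growth. None of 7 detected was higher and 3 were lower (median -0.98). Ogn, osteoglycin, was at 8.80 and 8.90 in the SCI+FES pool, against 12.34 and 12.30 in the sham pool, a difference of -3.47 ± 0.05. Aspn, asporin, which binds collagen and restrains BMP and TGF-beta signals, was at 9.59 and 9.45 in the SCI+FES pool, against 12.78 and 12.72 in the sham pool (-3.23 ± 0.08). Prelp fell by less (-1.42 ± 0.12), and the remaining 4, Dcn, Bgn, Fmod and Lum, did not pass the size rule.

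Among 16 detected matricellular and adhesive glycoproteins, 0 were higher and 4 lower, with a median of -0.65. Postn, periostin, a loading-responsive product of periosteal and stromal cells, stood at 8.91 and 9.12 in the SCI+FES pool, against 10.86 and 10.92 in the sham pool (-1.87 ± 0.11). The basement membrane genes Nid1 (-1.18 ± 0.06) and Lamb1 (-1.13 ± 0.07) and the elastic-fibre gene Fbln5 (-1.16 ± 0.02) were lower. Of 16 metalloproteinases and inhibitors, Mmp23 (-1.29 ± 0.09) and Adamts5 (-1.25 ± 0.15), an aggrecan-cutting protease, were lower and none was higher.

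Genes of contractile stromal cells went partly the same way. In the smooth muscle and myofibroblast list, 3 of 10 detected were lower (Tpm1 -1.62 ± 0.03, Smtn -1.47 ± 0.14 and Myl9 -1.42 ± 0.04) and 1, the intermediate filament gene Des, was higher (1.04 ± 0.09). Tagln, transgelin, was at 12.86 and 12.85 in the SCI+FES pool, against 13.51 and 13.28 in the sham pool and did not pass the rule (-0.54 ± 0.11). Myl11, a fast myosin light chain, and Myh3, embryonic myosin, both best known from skeletal muscle, were detected in sham and not in SCI+FES, at least 2.81-fold and 1.62-fold lower. They belong to a separate skeletal muscle list, where 2 of 6 detected genes were lower and 0 higher (median -0.89). In SCI minus sham they were at -1.94 and -1.21, and the median of the same 6 genes was -0.96.

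Growth factor and signalling genes of the stroma passed the rule in both directions, 3 of 11 and 4 of 20 in the lists described here, against 7.56% of all detected genes in either direction. Of 11 growth factors and receptors, Igf2 (-2.10 ± 0.14), an insulin-like growth factor, and Igfbp6 (-2.15 ± 0.05), which binds it, were lower, and Igfbp3 (1.37 ± 0.10), the main carrier of circulating insulin-like growth factors, was higher. Igf2 was at 6.63 and 6.81 in the SCI+FES pool, against 8.72 and 8.93 in the sham pool and was detected on 1 of the 2 SCI+FES arrays. In the BMP and TGF-beta list, 3 of 20 were higher and 1 lower (median -0.09). Id1, a direct target of BMP signals, was at 9.02 and 8.83 in the SCI+FES pool, against 6.96 and 6.86 in the sham pool, above sham on both arrays (2.01 ± 0.11), and Inhba, the activin A chain, was 1.03 ± 0.03. Chrd, chordin, a secreted BMP antagonist, was not detected in SCI+FES and was at least 1.83-fold lower.

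Wnt genes had a median near that of all detected genes. Of 11 detected ligands, receptors and targets, Tcf7 was higher (1.08 ± 0.06), Ccn5 was lower (-1.11 ± 0.18), and the median was -0.05. Tcf7 encodes a transcription factor of the Wnt pathway that T cells also express. Wnt5a was -0.22 ± 0.10 and Lrp5, a Wnt co-receptor that controls bone mass, 0.03 ± 0.13. The target gene Axin2 and the antagonist gene Dkk1 were not detected in either pool. Among 3 detected Wnt antagonists none passed the rule, with Sfrp4 at 0.80 ± 0.04, Sfrp2 at -0.52 ± 0.09 and Dkk3 at -0.71 ± 0.10.

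Of the signals from osteoblasts to osteoclasts, osteoprotegerin passed the size rule and RANKL did not. Tnfrsf11b, which encodes osteoprotegerin, was at 10.11 and 10.19 in the SCI+FES pool, against 11.22 and 11.22 in the sham pool. The pools did not overlap and the difference was -1.06 ± 0.04, which was -0.86 in the authors' matrix values and short of 2-fold there. Tnfsf11, which encodes RANKL, was at 7.31 and 7.04 in the SCI+FES pool, against 6.55 and 6.16 in the sham pool. It was detected on both SCI+FES arrays and on no sham array, at least 1.3-fold higher, and did not pass the size rule (0.82 ± 0.24).

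Markers of osteoclasts themselves were mostly below sham. Of 12 detected, 1 was higher and 1 lower, and the median was -0.40. Ctsk, the collagen-degrading cathepsin K, which stromal cells also express, was at 12.04 and 11.93 in the SCI+FES pool, against 13.12 and 13.05 in the sham pool (-1.10 ± 0.06), and at -0.73 in the authors' matrix values. Car2, the carbonic anhydrase that supplies protons for resorption and occurs in many other cells, was higher at 10.30 and 10.29 in the SCI+FES pool, against 7.89 and 8.02 in the sham pool (2.34 ± 0.07). The protease gene Mmp9 (-0.75 ± 0.07) and the proton pump subunit gene Atp6v0d2 (-0.56 ± 0.07) did not pass, and Calcr, the calcitonin receptor, was not detected.

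Interleukin-1 genes stood among the largest differences. Il1b, the inducible interleukin-1, was at 11.95 and 11.90 in the SCI+FES pool, against 7.71 and 7.92 in the sham pool, which made it 17.3 times the sham level (4.11 ± 0.11). Il1a was detected in SCI+FES and not in sham (9.40 and 9.27, against 5.86 and 6.11 in the sham pool), at least 5.83-fold higher. Their antagonists were also higher: Il1rn, the receptor antagonist (1.55 ± 0.05), and Il1r2, the decoy receptor (1.20 ± 0.11). Il33, a stromal alarmin of the same family, was lower (-1.20 ± 0.10); its other probe was not detected. Of 10 detected members of this family, 4 were higher and 1 lower, with a median of 0.42. In SCI minus sham, the median of the same 10 genes was 0.004. Il1b was at 2.99, Il1a at 0.98, Il1rn at 0.38, Il1r2 at 0.06 and Il33 at -1.19.

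Of the prostaglandin genes, Ptgs2, the inducible cyclooxygenase, was the one past the rule among 9 detected. It was at 10.95 and 10.97 in the SCI+FES pool, against 8.31 and 8.55 in the sham pool (2.53 ± 0.12). The prostaglandin receptor genes Ptger2 and Ptger4 stayed at 0.31 and 0.43, and Ptges, which encodes the inducible prostaglandin E synthase, was not detected. In the wider list of osteoclastogenic cytokines 5 of 10 were higher, namely Il1b, Il1a, Ccl2, Ptgs2 and Il1rn, and Tnfrsf11b was the 1 lower member (median 1.18). Il1a, Tnfsf11 and Csf2 counted as detected through the SCI+FES pool and not the sham pool. The median therefore depends in part on the detection filter. Il1rn blocks interleukin-1, so the higher members do not all act towards resorption. The Il6 transcript was detected on 1 SCI+FES array and on no sham array, and Tnf on none of the 4.

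Chemokine genes were higher, in part strongly. Of 21 detected chemokines and receptors outside the interferon gamma list, 12 were higher and 0 lower (median 1.14). Ccl17, Ccl22, Xcl1 and Cxcr3 counted as detected through the SCI+FES pool and not the sham pool. Left out by the filter were Ccl9, Ccl11, Ccl19, Ccl21, Cxcl3, Ccr2, Cx3cr1 and Ackr3, at 0.05, 0.15, 0.27, -0.05, 0.01, 0.15, 0.07 and -0.13. The median therefore depends in part on the detection filter. Ccl17, which draws CCR4-bearing T cells and is made by dendritic cells and macrophages, stood at 10.90 and 10.86 in the SCI+FES pool, against 6.02 and 6.08 in the sham pool and was at least 17.0-fold higher, with 0 of 2 sham arrays detecting it. Monocyte chemokines were bright in both pools and higher in SCI+FES: Ccl2 was at 13.63 and 14.04 in the SCI+FES pool, against 11.01 and 11.24 in the sham pool (2.71 ± 0.23), Ccl7 differed by 2.32 ± 0.10 and Ccl12, which is on none of the lists, by 3.25 ± 0.13. Ccl20 (2.58 ± 0.08), Ccl4 (2.25 ± 0.03), Ccl22 (at least 2.87-fold), Cxcl16 (1.51 ± 0.23), Ccl5 (1.25 ± 0.11), Ccl3 (1.20 ± 0.06), Cxcl2 (1.15 ± 0.12), Cxcl1 (1.14 ± 0.01) and Cxcl13 (1.11 ± 0.13), the B cell chemokine, were the others. The other probe of Cxcl16 was not detected. Cxcl12, the stromal chemokine that retains blood-forming cells in marrow, was among the members that did not pass the rule, at -0.17. In SCI minus sham, the median of the same 21 genes was 0.35. Ccl17 was at 3.29, Ccl2 at 1.60, Ccl7 at 1.35 and Cxcl13 at -1.27, and Ccl12 was at 2.15.

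**Figure D3:**
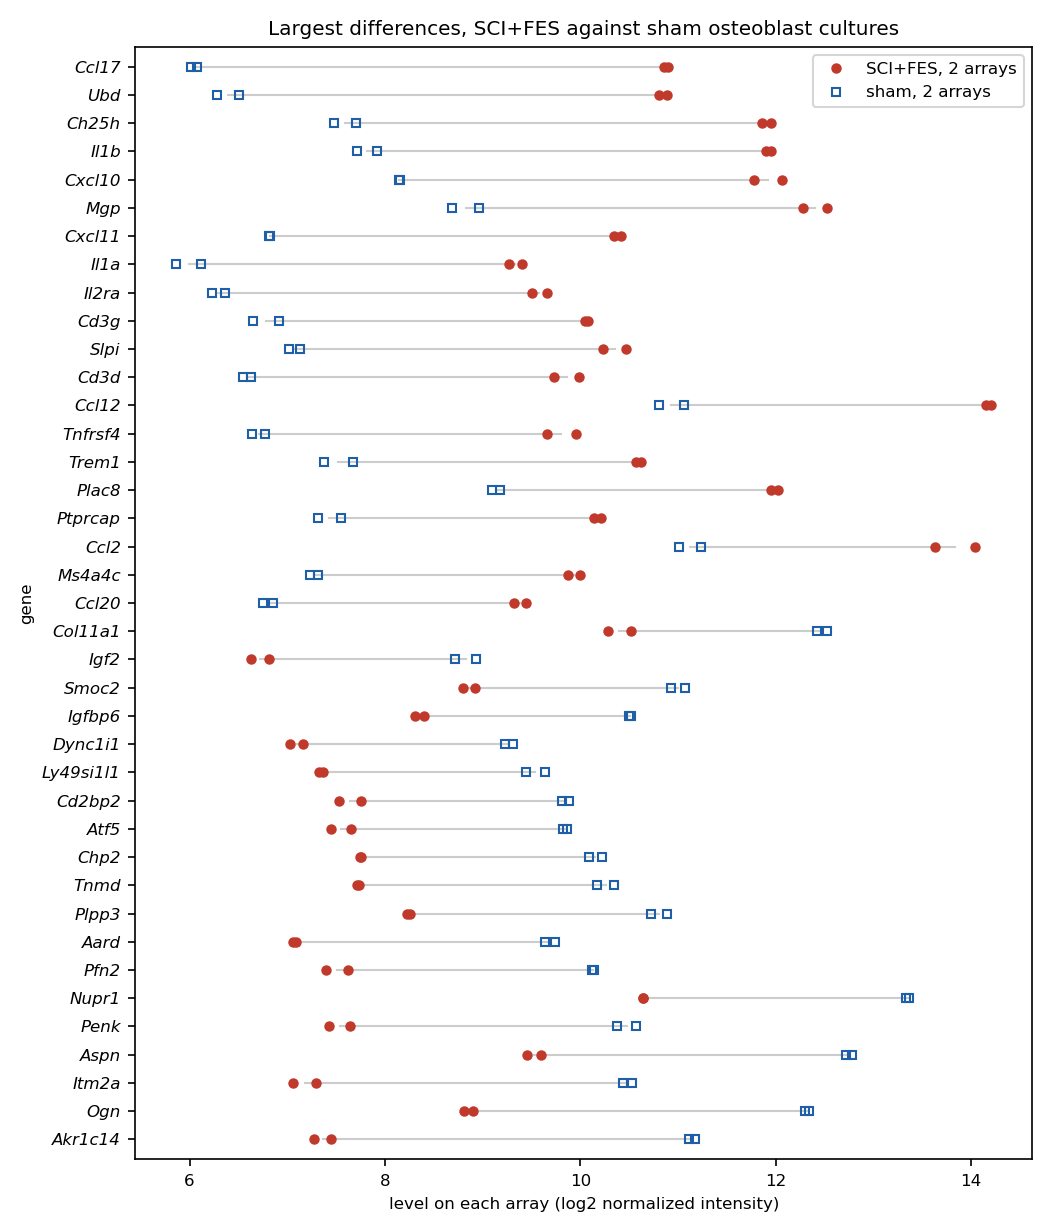
Log2 level on each array (horizontal axis) of genes with the largest differences in each direction (vertical axis). Filled red circles are the 2 SCI+FES arrays and open blue squares the 2 sham arrays; the pools do not overlap for any of the genes shown, and the order is that of the fitted differences, also for genes such as Ccl17 that were not detected in sham.

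Genes induced by interferon gamma were higher as a group, and those of type I interferon in part. Of 10 detected interferon gamma genes, 7 were higher and 0 lower (median 1.53). Ubd, Socs1 and Gbp5 counted as detected through the SCI+FES pool and not the sham pool, and the filter left out Irf8 (-0.005). The median therefore depends in part on the detection filter. Ubd, a ubiquitin-like modifier, stood at 10.89 and 10.81 in the SCI+FES pool, against 6.51 and 6.28 in the sham pool, undetected in sham and at least 16.6-fold higher. The chemokine genes of CXCR3-bearing T cells were all higher: Cxcl10 was at 12.06 and 11.78 in the SCI+FES pool, against 8.15 and 8.14 in the sham pool (3.77 ± 0.14), Cxcl11 at 10.35 and 10.42 in the SCI+FES pool, against 6.83 and 6.81 in the sham pool (3.56 ± 0.04), and Cxcl9 differed by 2.04 ± 0.11. Gbp2, a guanylate-binding protein (1.58 ± 0.14), Irf1, a transcription factor (1.21 ± 0.04), and Socs1, a feedback inhibitor of cytokine signals (at least 2.43-fold), were higher too. Ifng, the gene of interferon gamma, was not detected. In SCI minus sham, the median of the same 10 genes was 0.64. Ubd was at 2.17, Cxcl10 at 1.79, Cxcl9 at 1.58, Cxcl11 at 1.42 and the uncalled Gbp5 at -0.26.

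In the type I interferon list, 8 of 26 were higher and 0 lower, with a median of 0.59. Mx2 (2.55 ± 0.08) and Mx1 (1.81 ± 0.09), close relatives whose probes may share signal, encode antiviral GTPases. Irf7, the factor that amplifies interferon production, was at 13.12 and 13.12 in the SCI+FES pool, against 11.60 and 11.57 in the sham pool, with both arrays of each pool nearly level (1.54 ± 0.02). Cmpk2 (1.71 ± 0.15), Herc6 (1.60 ± 0.04), Zbp1 (1.58 ± 0.14), Dhx58 (1.25 ± 0.07) and Oasl (1.08 ± 0.03) were the others. In SCI minus sham, the median of the same 26 genes was -0.26, and the called genes lay on both sides of sham. Mx2 was at 1.55, Cmpk2 at 0.27 and Herc6 at 0.16, while Dhx58 was at -0.06, Mx1 at -0.34, Zbp1 at -0.42, Irf7 at -0.62 and Oasl at -1.07.

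The promoters of these genes were searched for the letters of the interferon-stimulated response element, TTTC, any 2 bases and TTTC on either strand, in the RefSeq windows of the rat build GRCr8 that run from 250 bases before to 50 after each annotated start. Of the 36 detected members of both interferon lists, 27 had a window, and 15 of these held the letters, against 3.77% of all 27457 windows. They were in 4 of the 12 windows of higher genes and in 11 of the 15 windows of members that did not pass the rule. The match is a description of letters and not a sign of factor binding. Stretches around the match are shown for the 4 genes that held it and passed the size rule as higher. Capitals mark the matched letters, overlapping matches included, and each run reads 5′ to 3′ on the strand of the gene.
Cxcl10 promoter, chr14:15988816-15988905, plus strand: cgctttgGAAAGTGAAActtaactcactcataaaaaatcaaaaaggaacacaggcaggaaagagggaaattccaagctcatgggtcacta
Gbp2 promoter, chr2:234005637-234005726, plus strand: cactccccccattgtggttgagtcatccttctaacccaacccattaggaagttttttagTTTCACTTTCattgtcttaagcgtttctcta
Irf7 promoter, chr1:205800043-205800132, minus strand: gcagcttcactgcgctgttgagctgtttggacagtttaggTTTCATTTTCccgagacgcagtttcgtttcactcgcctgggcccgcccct
Socs1 promoter, chr10:5389430-5389519, plus strand: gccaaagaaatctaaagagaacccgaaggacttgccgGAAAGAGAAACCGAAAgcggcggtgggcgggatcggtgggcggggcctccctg
The Cxcl10 (3.77 ± 0.14) match lies 243 bases before the annotated start, the Gbp2 (1.58 ± 0.14) match 31 bases and the Irf7 (1.54 ± 0.02) match 69 bases before it, while Socs1 (at least 2.43-fold higher) holds 2 overlapping matches.

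NF-kB is the transcription factor that inflammatory cytokines switch on. Among 10 of its targets and acute-phase genes, Sod2, the mitochondrial superoxide dismutase (2.18 ± 0.06), the survival gene Birc3 (1.65 ± 0.12) and the feedback inhibitor gene Nfkbia (1.55 ± 0.13) were higher. The adhesion gene Vcam1 (-1.11 ± 0.02) and the haptoglobin gene Hp (-1.15 ± 0.10) were lower. The letters GGGA, any 1 base and TTTCC, on either strand, stood in 5 of 30 promoter windows of detected chemokine, NF-kB and interleukin-1 genes, those of Cxcl1, Nfkbia, Cxcl6, Nfkb1 and Nfkb2, and in 0.37% of all windows. They were in 2 of the 15 windows of genes past the size rule (Cxcl1 and Nfkbia) and in 3 of the 15 windows of the rest.

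T cell genes were higher in the SCI+FES pool and several were not detected in sham. Of 17 detected T and NK cell genes, 11 were higher and 0 lower, and the median was 1.56. Cd3d, Cd3e, Cd247, Zap70, Cd2, Il2ra, Tnfrsf4, Gzmb and Klrb1a counted as detected through the SCI+FES pool and not the sham pool. The filter left out Cd5, Cd28, Klrd1, Gzma and Ifng, at -0.04, 0.12, 0.21, 0.07 and 0.02. The median therefore depends in part on the detection filter. The invariant chains of the T cell receptor complex lay at 10.07 and 10.05 in the SCI+FES pool, against 6.65 and 6.92 in the sham pool for Cd3g and 9.99 and 9.73 in the SCI+FES pool, against 6.54 and 6.62 in the sham pool for Cd3d. Cd3d, Cd3e and Cd247 were undetected on both sham arrays and at least 8.39-fold, 3.86-fold and 4.40-fold higher. The activation genes Il2ra, the interleukin-2 receptor alpha chain, and Tnfrsf4, the costimulatory receptor OX40, were at least 6.91-fold and 8.07-fold higher.

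The signalling kinases Lck (1.85 ± 0.11) and Zap70 (at least 1.83-fold) and the cytotoxic granule gene Nkg7 (1.56 ± 0.04) were higher. Cd8a was bright in both pools, at 12.58 and 12.50 in the SCI+FES pool, against 10.81 and 10.75 in the sham pool (1.76 ± 0.05), and Cd8b differed by 1.03 ± 0.07. Cd4, which rat macrophages also carry, was at -0.86 ± 0.05, short of the rule. In SCI minus sham, the median of the same 17 genes was 0.47. Cd3d was at 1.39, Cd3g at 1.32, Il2ra at 0.85, Cd8a at -0.19 and Cd8b at -0.41. The 6 defining T cell markers summed to a normalized intensity of 9037.7 and 8564.3 on the SCI+FES arrays, against 2294.5 and 2237.2 on the sham arrays. Cd8a, the brightest of the 6 in both pools, weighs most in these sums. In sham it was bright while Cd3d, Cd3e and Cd247 were undetected, so the sums cannot be read as T cell content. The part of T cell genes in the cytokine and interferon differences above was not tested.

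Several mast cell genes were higher while an eosinophil gene was lower. Of 8 detected genes on the joint list, 5 were higher and 1 lower (median 1.53). Hdc, Fcer1a, Mcpt2 and Mcpt1 counted as detected through the SCI+FES pool and not the sham pool, and Epx the other way round. The median therefore depends in part on the detection filter. Cpa3, the mast cell carboxypeptidase, was at 9.18 and 8.95 in the SCI+FES pool, against 7.35 and 7.37 in the sham pool (1.70 ± 0.12). Hdc, which makes histamine, and Fcer1a, the alpha chain of the IgE receptor, were undetected in sham and at least 3.99-fold and 2.30-fold higher. The protease genes Mcpt2 and Mcpt1, members of a family of close copies whose probes may share signal, were at least 2.85-fold and 1.86-fold higher. Prg2, the eosinophil major basic protein, went the other way at 9.56 and 9.42 in the SCI+FES pool, against 11.23 and 11.17 in the sham pool (-1.71 ± 0.08). Epx, eosinophil peroxidase, was detected in sham and not in SCI+FES, and did not pass (-0.71 ± 0.09). Kit and the mast cell genes Tpsab1, Tpsb2, Mcpt4 and Ms4a2 were not detected in either pool, and Gata2 was at 0.34, short of the rule. In SCI minus sham the median of the same 8 genes was 0.72, with Cpa3 at 1.52, Hdc at 1.16, Fcer1a at 1.03 and Prg2 at -0.62.

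Macrophage genes did not move as a block. Of 17 detected, 5 were higher and 1 lower (median 0.48). Cd163, the haemoglobin scavenger receptor, was at 9.71 and 9.85 in the SCI+FES pool, against 7.56 and 7.81 in the sham pool (2.09 ± 0.14). The lectin gene Clec10a (1.53 ± 0.07), the endotoxin co-receptor gene Cd14 (1.48 ± 0.06), the Fc receptor gene Fcgr3a (1.30 ± 0.07) and the complement receptor gene Vsig4 (1.17 ± 0.04) were higher. Trem2, a lipid-sensing receptor of macrophages and osteoclast precursors, was lower at 11.98 and 12.21 in the SCI+FES pool, against 13.74 and 13.70 in the sham pool (-1.62 ± 0.11). Of the other markers, Cd68 was at -0.15 ± 0.04, C1qa at -0.03 ± 0.06 and C1qb at 0.57 ± 0.01, and C1qc and Tyrobp were at 0.48 and 0.43, all short of the rule.

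Antigen presentation genes lay above sham. All 5 detected class II genes had positive differences and 2 passed the rule, RT1-Ba at 13.94 and 14.01 in the SCI+FES pool, against 12.31 and 12.12 in the sham pool (1.76 ± 0.10) and RT1-Db1 (1.14 ± 0.09). Of 9 detected genes of class I processing, Tap1, a peptide transporter (1.61 ± 0.09), Tapbp, which loads peptide onto class I (1.34 ± 0.04), and the immunoproteasome subunits Psmb9 (1.35 ± 0.20) and Psmb8 (1.07 ± 0.06) were higher. The RT1 genes form a family of close copies and their probes may share signal.

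Proliferation genes lay above sham throughout the list. All 29 detected genes of DNA replication and mitosis had positive differences, 21 were higher and 0 lower, and the median was 1.40. Rrm2, the inducible subunit of the enzyme that makes deoxyribonucleotides, was at 11.48 and 11.58 in the SCI+FES pool, against 9.40 and 9.11 in the sham pool (2.28 ± 0.16). The mitotic genes Ube2c (2.05 ± 0.12), Ccna2 (2.02 ± 0.08), Aurkb (2.00 ± 0.04), Cdc20 (1.89 ± 0.03) and Prc1 (1.86 ± 0.04) followed. The helicase genes Mcm6 (1.77 ± 0.13), Mcm3 (1.71 ± 0.08), Mcm2 (1.43 ± 0.04) and Mcm7 (1.40 ± 0.07), which unwind DNA at origins, were higher, and Mki67, a widely used proliferation marker, was at 0.33. In SCI minus sham the median of the same 29 genes was 1.04, with Rrm2 at 1.75 and Mcm6 at 1.54.

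E2F factors drive genes of the S phase, and their letters TTTGGCGC or TTTCCCGC were searched in the same promoter windows on both strands. Of 22 windows of detected replication and mitosis genes, 6 held a match, against 1.53% of all windows; 4 of them belonged to the 15 windows of higher genes and 2 to the 7 windows of the rest. Stretches of the 4 higher genes, 3 of them helicase genes, are given with the match in capitals.
Mcm6 promoter, chr13:42404443-42404532, minus strand: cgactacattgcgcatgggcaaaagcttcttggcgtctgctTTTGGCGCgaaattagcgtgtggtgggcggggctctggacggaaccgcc
Mcm3 promoter, chr9:30733745-30733836, minus strand: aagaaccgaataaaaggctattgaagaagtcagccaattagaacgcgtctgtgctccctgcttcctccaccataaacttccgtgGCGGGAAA
Mcm7 promoter, chr12:22163339-22163428, minus strand: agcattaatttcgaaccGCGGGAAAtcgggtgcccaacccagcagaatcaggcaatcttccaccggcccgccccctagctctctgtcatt
Tyms promoter, chr9:120776084-120776173, minus strand: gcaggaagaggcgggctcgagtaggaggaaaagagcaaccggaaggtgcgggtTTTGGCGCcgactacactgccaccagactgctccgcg
Matches began 139, 6, 233 and 37 bases before the annotated start of Mcm6 (1.77 ± 0.13), Mcm3 (1.71 ± 0.08), Mcm7 (1.40 ± 0.07) and Tyms (1.30 ± 0.08), which makes thymidylate.

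**Figure D4:**
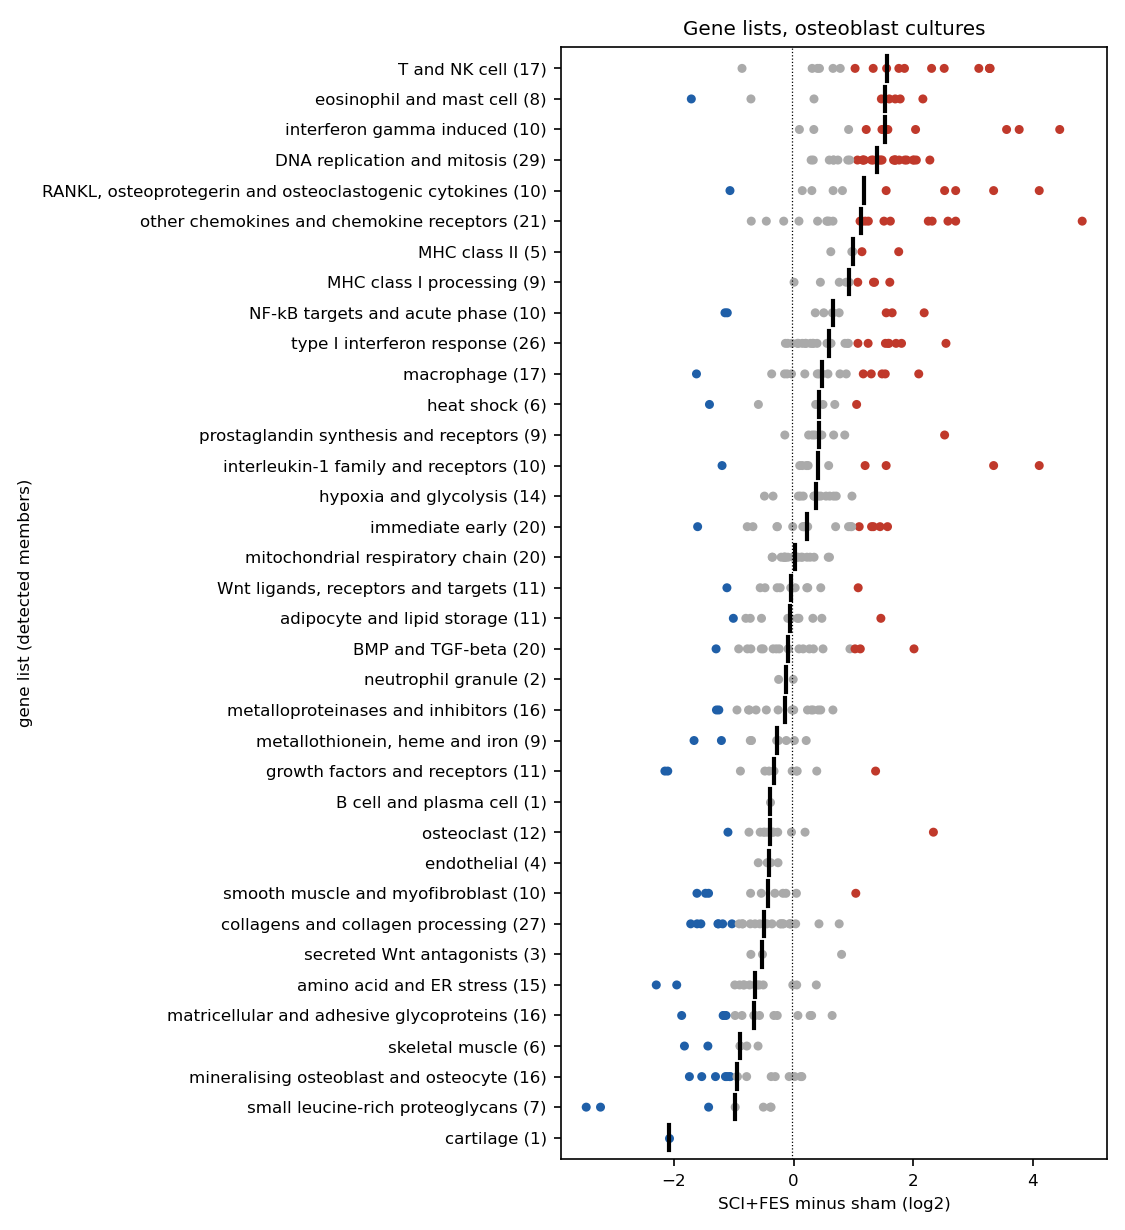
Each point is a detected gene of 1 of the lists on the vertical axis (number detected in brackets), placed by its SCI+FES minus sham difference (log2) on the horizontal axis; red points passed the size rule as higher, blue as lower, and black bars are list medians. The dotted line is the median of all detected genes (-0.02). Medians run from 1.56 for T and NK cell genes down to -0.98 for small proteoglycans and -2.08 for the cartilage list with its 1 gene. They cover detected members only, and several T and NK cell genes were detected in SCI+FES and not in sham.

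Early response genes were split. Of 20 detected, 5 were higher and 1 lower (median 0.23). Junb (1.57 ± 0.03), Btg2 (1.45 ± 0.08), Zfp36, which destabilises cytokine mRNAs (1.33 ± 0.06), Ier3 (1.30 ± 0.06) and Fos (1.10 ± 0.06) were higher, and Klf2, a factor induced by fluid flow in endothelium, was lower at 7.44 and 7.41 in the SCI+FES pool, against 9.03 and 9.02 in the sham pool (-1.60 ± 0.02). Genes of the amino acid and endoplasmic reticulum stress response lay below sham, with 0 of 15 higher and 2 lower (median -0.64). Atf5, a factor of this response, was at 7.65 and 7.44 in the SCI+FES pool, against 9.83 and 9.86 in the sham pool (-2.30 ± 0.11). Trib3 was detected in sham and not in SCI+FES and was at least 3.67-fold lower, and Atf4 itself was at -0.74. For these genes SCI minus sham was -2.37 and -2.34, and the list median was -1.25.

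Several of the largest differences belonged to genes on no list. Mgp, matrix Gla protein, a secreted inhibitor of calcification, was at 12.28 and 12.53 in the SCI+FES pool, against 8.69 and 8.96 in the sham pool, a rise of 3.58 ± 0.18. Ch25h, which makes 25-hydroxycholesterol and is induced by interferon, was at 11.85 and 11.96 in the SCI+FES pool, against 7.47 and 7.70 in the sham pool (4.32 ± 0.12). Slpi, a protease inhibitor (3.28 ± 0.13), Trem1, an amplifying receptor of myeloid cells (3.07 ± 0.15, with 2.77 from its other probe), Plac8 (2.85 ± 0.05), the lymphocyte gene Ptprcap (2.74 ± 0.13) and Ms4a4c (2.66 ± 0.08) were the others upward. In SCI minus sham, Ch25h was at 2.68, Mgp at 1.96, Slpi at 1.37, Ms4a4c at 1.25, Ptprcap at 1.24, Trem1 at 0.94 and Plac8 at -0.06.

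Downward, Akr1c14, a hydroxysteroid dehydrogenase, was at 7.45 and 7.27 in the SCI+FES pool, against 11.17 and 11.11 in the sham pool (-3.78 ± 0.09). The transmembrane gene Itm2a (-3.30 ± 0.13) and the tendon gene Tnmd (-2.54 ± 0.09) were lower, as was Penk, which encodes proenkephalin, at 7.64 and 7.43 in the SCI+FES pool, against 10.38 and 10.57 in the sham pool (-2.94 ± 0.14). In SCI minus sham, Akr1c14 was at -2.35, Itm2a at -2.76, Tnmd at -1.64 and Penk at -0.35. Nupr1, a stress-induced chromatin protein, was bright in sham, with 10.64 and 10.64 in the SCI+FES pool, against 13.34 and 13.37 in the sham pool (-2.71 ± 0.02). Pfn2, a profilin (-2.62 ± 0.11), Aard (-2.61 ± 0.05), Plpp3, a lipid phosphatase (-2.56 ± 0.08), Chp2 (-2.41 ± 0.07), Cd2bp2 (-2.21 ± 0.12), Dync1i1, a dynein chain (-2.17 ± 0.08), the matrix gene Smoc2 (-2.15 ± 0.09) and Ly49si1l1, of a receptor family of close copies (-2.19 ± 0.10), were lower too.

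The same treatments were set side by side in osteoclast cultures, which the labels date to culture day 3. There 133 of 7636 detected genes were higher (1.74%) and 185 lower (2.42%), together 4.16%. Of the 360 genes higher in SCI+FES osteoblast cultures, 330 were detected in osteoclast cultures, where 62 were higher, 21 lower and the median was 0.52. Of the 276 lower genes, 143 were detected there, with 6 higher, 23 lower and a median of -0.38. Class II genes were higher in osteoclast cultures as well, all 5 of 5 with a median of 2.20, and replication and mitosis genes had 6 higher of 26 and a median of 0.68. Type I interferon genes went the other way, with 0 higher and 15 lower of 27 and a median of -1.23; Irf7 was at -1.39 and Mx1 at -1.50. Whether the culture types differ in their response was not tested, because each value rests on 1 pool a side.

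**Figure D5:**
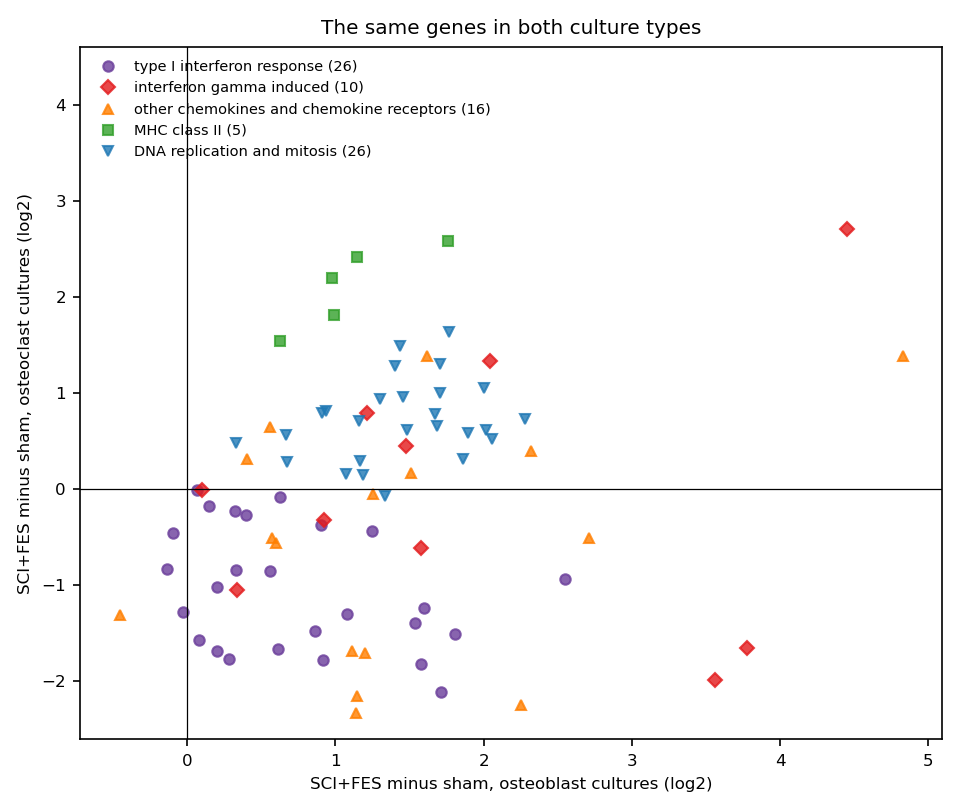
SCI+FES minus sham difference (log2) in osteoblast cultures (horizontal axis) and in osteoclast cultures (vertical axis) for the members of 5 lists detected in both. Replication and class II genes lie mostly to the upper right, while most type I interferon genes, such as Irf7 (1.54 and -1.39), lie to the lower right.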

How the data were processed

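RNA of cultured rat marrow cells was measured on Illumina rat arrays, all 12 on 1 chip. Per the file headers, the deposited table lists 22523 probes, each with an intensity and a detection p-value on every array. Between 26.8% and 30.4% of the deposited intensity values were below 0, so a background had been subtracted, by software that is not given in the sources used here. Steps of 1 over 825 separate the values of the deposited detection p-value. In the authors' series matrix stands a linear rescaling of the same intensity values (slope 0.731 to 1.42 by array, r = 1); it was used as an alternative, and how the authors set its scale and centring stays unknown.

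Intensities were corrected with normexp (offset 50) and quantile-normalized over 12 arrays in limma 3.58.1 under R 4.3.3, then put on the log2 scale here; the authors deposited no log2 values. Later steps used Python 3.11.15 with pandas 2.3.3, numpy 2.4.6 and matplotlib 3.10.9. Probes were matched by symbol to RefSeq genes: 10291 symbols were current, 6574 updated, 5541 kept as deposited and 117 absent. Of 21565 genes, 892 had several probes and were represented by the brightest. No column belonged to another sample.

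With 1 pool a group no test was run, and the number of arrays and pools limits the precision. A fold is given as "at least" where no array of the dimmer pool detected the gene, where the dimmer level is set to the lowest level detected on that array, or to the probe's own if that is higher. The size rule, the 37 gene lists and the comparison were chosen with earlier results of these data known. Genes named are the 20 with the largest difference in each direction that carry a symbol, list members past the rule, a fixed set of bone genes, defining cell type markers, and up to 4 members nearest the median of lists with none past the rule; other list members given by value, and Ccl12's place beside the chemokines, were chosen after their values were seen. Of 636 called genes, 49 carry only a placeholder name. Some genes that meet the rule for naming are not reported here.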

Additional observations from a re-analysis of the deposited data

Results flagged for a closer look

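Among the 166 called genes of the lists and of the largest differences, 18 passed the size rule in opposite directions in osteoblast and osteoclast cultures. Of all 473 genes called in osteoblast cultures and detected in osteoclast cultures, 21 were higher in the first and lower in the second. For 6 the order was reversed. In both cultures 62 were higher and 23 lower. Of all genes detected in osteoclast cultures, 4.16% passed the rule there. The difference between the culture types was not tested, since each culture type has 1 pool a side. Differences are SCI+FES minus sham on the log2 scale.

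Interferon-responsive genes made up a large share of them. Cxcl10 was 3.77 in osteoblast cultures and -1.65 in osteoclast cultures, and Cxcl11 was 3.56 and -1.99 in the same order. Mx1 was 1.81 and -1.50, Cmpk2 1.71 and -2.11, Herc6 1.60 and -1.23, Zbp1 1.58 and -1.82, Irf7 1.54 and -1.39, and Oasl 1.08 and -1.30.

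Chemokine and early response genes followed. Ccl4 was 2.25 in osteoblast and -2.24 in osteoclast cultures, Ccl3 1.20 and -1.71, Cxcl2 1.15 and -2.15, Cxcl1 1.14 and -2.33, and Cxcl13 1.11 and -1.68. Ptgs2 was 2.53 and -1.69, Zfp36 1.33 and -1.18, and Fos 1.10 and -1.37. Cxcl1, Fos and Oasl fell short of 2-fold in osteoblast cultures under a common median, at 0.92, 0.88 and 0.88. Cxcl13 fell short there without sham array 2, at 0.98.

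The reverse order held for Prg2 and Smpd3. Prg2 was -1.71 in osteoblast and 2.25 in osteoclast cultures, and Smpd3 was -1.74 and 1.22.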

How the results depend on the processing

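The number of genes past the size rule depended on the offset. With log2 of the signal plus 16, 592 genes were higher and 561 lower (1153 in all), and with neqc at an offset of 16 the counts were 563, 522 and 1085. At 1.5-fold 832 were higher and 801 lower (1633), and at 3-fold 116 and 68 (184). Other settings stayed within 1.5 times of 360, 276 and 636: 286, 410 and 696 under a common median, 361, 272 and 633 with quantiles over the 6 osteoblast arrays, 472, 290 and 762 in the authors' matrix values, 358, 275 and 633 with the mean of detected probes, and 360, 276 and 636 at a detection p of 0.05 or with no detection filter. Leaving out 1 of the 4 arrays gave 353 to 361 higher, 280 to 290 lower and 641 to 644 in all. No paired analysis was possible because each group is 1 pool.

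Of the 166 called genes of the lists and of the largest differences, none changed direction under these settings, and 144 kept their call under every setting that kept the 2-fold threshold. A common median cost 11 calls (Vsig4, Nusap1, Cxcl1, Fos, Tcf7, Oasl, Hsp90aa1, Des, Cd8b, Inhba and Pcolce), and the authors' matrix values 8, among them Col1a1 (-0.88), Lox (-0.94), Tnfrsf11b (-0.86) and Ctsk (-0.73). Quantiles over the 6 osteoblast arrays cost 3 (Cd8b, Fabp4 and Pcolce) and the mean of probes 1. Without SCI+FES array 1, Des (0.97), Cd8b (0.98), Inhba (0.996), Fabp4 (-0.98) and Ccn5 (-0.95) fell just short, and without array 2, Pcna (0.99), Hsp90aa1 (0.81), Pcolce (-0.95) and Dlx5 (-0.96). Without sham array 1, Hsp90aa1 (0.87) and Des (0.98) did, and without sham array 2, Cxcl13 (0.98), Cd8b (0.97) and Fabp4 (-0.98). The cause was not tested. List medians changed sign only near 0, in the respiratory chain, adipocyte, neutrophil and Wnt lists. Sizes were less steady than signs. Over the settings with a 2-fold threshold, list medians moved by more than the spread of duplicate arrays in 191 comparisons and stayed within it in 241. Differences of the genes chosen for naming moved by more in 659 comparisons and stayed within it in 1561.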

Other observations

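The lists not described above had 0 to 2 members past the size rule, where 7.56% of all detected genes passed it. Of 11 detected adipocyte genes, the lipid carrier gene Fabp4 was lower (-1.01 ± 0.04) and Acsl1, which activates fatty acids, was higher (1.46 ± 0.19). Adipoq and Plin1, which mark mature adipocytes, were not detected in either pool, and Cfd was at 12.70 and 12.74 in the SCI+FES pool, against 13.57 and 13.47 in the sham pool (-0.80 ± 0.05). Of 6 heat shock genes, the small chaperone gene Cryab was lower (-1.41 ± 0.22) and Hsp90aa1 was higher (1.05 ± 0.30). Of 9 metallothionein, heme and iron genes, Slc40a1, which encodes the iron exporter ferroportin, was lower at 10.63 and 10.74 in the SCI+FES pool, against 12.28 and 12.41 in the sham pool (-1.66 ± 0.09). Mt3, also of this list, was detected in sham and not in SCI+FES and was at least 1.88-fold lower.

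Energy metabolism genes did not pass the rule. None of 14 hypoxia and glycolysis genes passed it (median 0.38), with Gapdh at 0.45 ± 0.03, Bnip3 at 0.41 ± 0.11, Pdk1 at 0.34 ± 0.04 and Aldoa at 0.34 ± 0.02. None of 20 respiratory chain genes passed either, with a median of 0.02 that turned to -0.002 under a common median. The 4 detected endothelial genes, Esam, Egfl7, Cldn5 and Tie1, were at -0.59, -0.44, -0.38 and -0.26. Jchain was the 1 detected B cell and plasma cell gene (-0.39 ± 0.03), Camp (-0.01 ± 0.09) and Lcn2 (-0.25 ± 0.03) were the 2 detected neutrophil genes, and 0 of 7 measured erythroid genes were detected.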
